A study of Homo sapiens with 36 samples.

Results

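The copper amine oxidases AOC1, AOC2 and AOC3 were followed across 12 groups of HK-2, a cell line that was immortalized from the epithelium of human kidney proximal tubules. AOC3 had been selected because it rises from background with the high dose of both compounds of the study, and its relatives AOC1 and AOC2 were taken with it. Each of the 3 genes had 1 probe set in the platform annotation (AOC1 203559_s_at, AOC2 207064_s_at, AOC3 204894_s_at), out of 54675 probe sets and 19775 named genes. No probe set annotated to several genes held a member (0 found). The ending _s_at marks sets that can match more than 1 transcript, and no probe sequence was used here.

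Exposure to Aa lasted 24 h or 48 h and exposure to Ota 24 h or 72 h, and both were given at a high dose, at a low dose or as vehicle alone. Every group held 3 biological replicates, 1 array each, which gave 36 arrays. The controls were separate for the compounds and for the times. Where nothing says that replicates came from separate cultures, p-values measure only the spread between these samples. The labels name the compounds only as Aa and Ota and state no concentration, so doses are not matched between them. All groups share 1 cell line, grown with EGF, hydrocortisone, insulin, transferrin and selenite, and nothing in the labels names a genetic change.

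Copper amine oxidases carry a copper ion and a quinone cofactor made from one of their own tyrosines, and they convert primary amines to aldehydes while releasing hydrogen peroxide and ammonia. AOC3, also called vascular adhesion protein-1 or semicarbazide-sensitive amine oxidase, is a membrane enzyme of vascular smooth muscle, fat cells and endothelium that acts on small amines such as methylamine and also serves in leukocyte adhesion. AOC2 is its closest relative, described mainly in the retina. AOC1 is the secreted diamine oxidase, which breaks down histamine and putrescine and is known from gut, placenta and kidney.

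AOC2 and AOC3 are adjacent genes on chromosome 17 in the RefSeq gene table. PSME3 lies before them, and the pseudogene AOC4P follows AOC3. A RefSeq sequence upstream of the start was matched for 2 of the 3 members (build GRCh38.p14), and that of AOC2 is shown because AOC2 is the member whose response differed between the compounds. It spans chr17:42844330-42844579 on the plus strand, 250 bases, 5′ to 3′, with motif matches in capitals.
AOC2 upstream: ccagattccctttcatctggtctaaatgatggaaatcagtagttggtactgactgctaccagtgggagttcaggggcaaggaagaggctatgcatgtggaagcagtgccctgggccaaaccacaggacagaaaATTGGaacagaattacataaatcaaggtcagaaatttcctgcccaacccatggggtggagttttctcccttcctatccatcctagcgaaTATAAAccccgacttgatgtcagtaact
The capitals mark a TATA box (TATAAA) that begins 28 bases before the start and a CCAAT box, read here on the opposite strand as ATTGG, 117 bases before it. Of 35116 RefSeq promoters, 10.7% held TATAAA and 32% held CCAAT within the same window, both strands counted. The letters TGACTCA (AP-1, in 4.2% of promoters), TGACGTCA (CRE, 1.65%) and GGGCGG (GC box, 42.6%) were not in this window. These matches describe the sequence only.

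A log2 value of 4 was used as the floor, and values at or below it were not ordered. A fold against a group lying wholly at or under 4 is given as "at least", taken against the higher of 4 and each array's own value. AOC3 exceeded 4 on 21 of 36 arrays and AOC2 on 15, and AOC1 exceeded it on 0. Every array with AOC2 above 4 also had AOC3 above 4. On 6 arrays AOC3 alone was above 4, and on 15 neither was.

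A gene was tested when its value exceeded 4 on at least 3 of the 18 arrays of a compound. AOC2 and AOC3 passed for both compounds, and both did so only through treated arrays, since all their control arrays lay under 4. AOC1 passed for neither compound and is described without a test. A call means an adjusted p below 0.05 in limma (Benjamini-Hochberg over all genes tested, two-sided), and changes are given ± SE. The SE rests on a spread shared by all groups of a fit, and groups at background varied less than the others. For AOC3 the group SDs ran from 0.05 to 0.76 with Aa and from 0.02 to 1.17 with Ota. The SE and p are thus too small for the groups that vary most. Whole arrays differed most with the high dose of Ota at 24 h, where the median over tested genes was 7.51 ± 0.17 (SD, n = 3) against 8.18 ± 0.05 in controls and replicates correlated at 0.953 to 0.982. At 72 h that median was 7.83 ± 0.05 against 8.17 ± 0.02, and the gap between 3' and 5' actin probe sets was 1.88 ± 0.37 against 1.29 ± 0.15. These arrays are the ones behind each Ota high dose value below. In bulk RNA, fewer cells carrying a transcript and less of it per cell cannot be told apart.

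**Figure D1:**
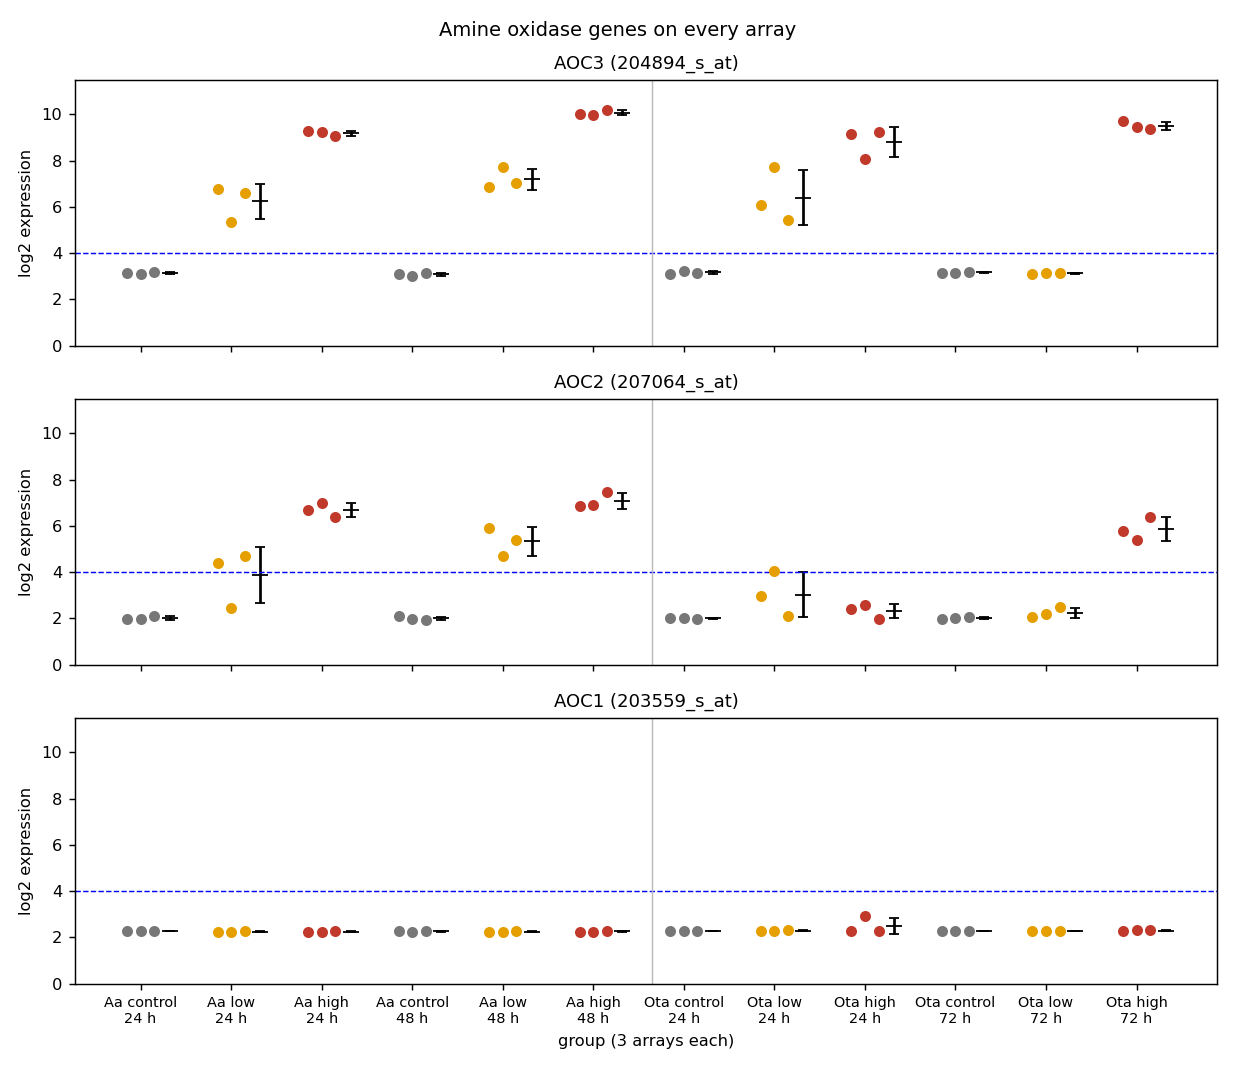
Log2 expression of AOC3, AOC2 and AOC1 (vertical axes) on every array of the 12 groups (horizontal axis, Aa left of the grey line and Ota right of it). Coloured points are single arrays (grey control, orange low dose, red high dose), the black bar beside them is the mean ± SD of 3 arrays, and the dashed line is the floor of 4. AOC3 lies above 4 in 7 groups, AOC2 has all 3 arrays above 4 in 4 groups, and AOC1 never exceeds 2.91.

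AOC3 was at background in every control and high with every high dose. In Aa controls it read 3.16, 3.09 and 3.18 at 24 h and 3.10, 3.02 and 3.14 at 48 h, and with the high dose of Aa it read 9.27, 9.24 and 9.06 at 24 h and 10.03, 9.98 and 10.19 at 48 h. The high dose arrays therefore lay far above the controls with no overlap, at least 36.5-fold at 24 h and at least 66.9-fold at 48 h. Over all genes tested, 27.4% were called higher and 24% lower with this dose at 24 h, and 30.9% and 35.1% at 48 h. These AOC3 contrasts chose the gene, so they are given without a test and nothing is read from the shares.

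With Ota the AOC3 controls read 3.10, 3.24 and 3.15 at 24 h and 3.16, 3.15 and 3.19 at 72 h. The high dose arrays read 9.15, 8.08 and 9.22 at 24 h and 9.70, 9.47 and 9.35 at 72 h, again all above every control. The bounds were at least 28.2-fold and at least 45.4-fold. Here 21.6% of genes tested were called higher and 42.4% lower at 24 h, and 26.3% and 37% at 72 h. Replicate 2 at 24 h stood below the other arrays of its group, and without it the difference in the high dose change between 72 h and 24 h went from 0.69 to 0.32 (log2). For Aa the 48 h change exceeded the 24 h change by 0.93 (log2), and the Ota change at 24 h was 0.39 (log2) below that of Aa, a gap of -0.02 without Ota high dose replicate 2 at 24 h, of -0.59 without replicate 3, and of the other sign (0.35) with arrays shifted to a common median. These are descriptions of the same selected contrasts.

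The low doses, which the selection did not use, raised AOC3 in 3 of 4 comparisons. They share control arrays with the high dose contrasts. Aa low dose arrays read 6.76, 5.36 and 6.59 at 24 h and 6.87, 7.71 and 7.02 at 48 h. All lay above every control and below every high dose array of their time. The changes were 3.09 ± 0.28 (adjusted p = 3.2e-06, 95% interval 2.50 to 3.68, 3 of 3 arrays higher) at 24 h and 4.11 ± 0.28 (adjusted p = 2.2e-07, 3.52 to 4.70, 3 of 3 higher) at 48 h. As bounds these were at least 4.71-fold and at least 9.19-fold. Among all genes, 11.6% were called higher and 13.5% lower with the low dose of Aa at 24 h, and 18.8% and 19.1% at 48 h. With the replicate number as a block, the genes called in either direction at 24 h went from 2753 to 4323, and the AOC3 call stayed.

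The low dose of Ota gave AOC3 a clear rise at 24 h and none that could be measured at 72 h. The arrays read 6.07, 7.71 and 5.44 at 24 h, the widest spread of any AOC3 group (SD 1.17), and 3.11, 3.13 and 3.15 at 72 h, all under 4 like the controls. The change was 3.25 ± 0.41 (adjusted p = 6.5e-05, at least 5.31-fold, 3 of 3 higher) at 24 h. It was -0.04 ± 0.41 (adjusted p = 0.97, 95% interval -0.90 to 0.83) at 72 h, where every array of both groups was under 4. The shared spread behind both SEs is smaller than that of the low dose arrays at 24 h and larger than that at 72 h. At 24 h 4.66% of genes were called higher and 10% lower, and at 72 h 9.79% and 7.28%. The whole-series count at 24 h went from 1619 to 941 genes without low dose replicate 2. At 72 h it went from 1883 to 1140 without control replicate 3 and to 1178 without low dose replicate 1.

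The difference between these effects was tested after the levels had been seen. The Ota low dose change of AOC3 was 3.28 ± 0.58 (log2) smaller at 72 h than at 24 h (a difference of -3.28, adjusted p = 0.00314), and -2.41 with values at or under 4 set to 4 (adjusted p = 0.0174). Over all alternatives the adjusted p lay between 8.3e-05 and 0.0174. In this comparison 7.34% of genes were called (809 in all, and 396 to 1261 with 1 array left out). The low dose of Aa showed the other sign, a change larger by 1.02 ± 0.39 at 48 h than at 24 h, which was not called (adjusted p = 0.259) and fell to 0.58 without Aa low dose replicate 2 at 24 h. There 1.64% of genes were called (180 in all, 1022 with the replicate block, and 66 to 248 with 1 array left out).

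No change of AOC3 between the control times was called. It differed by -0.05 between the Aa controls at 48 h and 24 h (adjusted p = 0.955) and by 0.00 between the Ota controls at 72 h and 24 h (adjusted p = 0.997), with all these arrays under 4. In the same comparisons 1.29% of genes were called for Aa and 29.8% for Ota. The Aa share rested on 142 genes, which became 1792 with the replicate block and 16 to 545 with 1 control array left out.

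Ordered by level, the groups with AOC3 above background began with the low doses at 24 h (Aa 6.24 ± 0.76, Ota 6.41 ± 1.17, SD, n = 3) and the low dose of Aa at 48 h (7.20 ± 0.45). The arrays of the Ota low dose overlapped both Aa low dose groups, while those of the Aa low dose at 24 h and 48 h did not overlap each other. Next came the high doses at 24 h (Ota 8.82 ± 0.64, Aa 9.19 ± 0.11), which overlapped. The high doses of Ota at 72 h (9.51 ± 0.18) and of Aa at 48 h (10.06 ± 0.11) followed, each with all arrays above the group before it. The groups at background, the 4 control groups and the Ota low dose at 72 h, have no order among themselves. High dose exceeded low dose by 2.95 and 2.87 (log2) for Aa at 24 h and 48 h, and by 2.41 and 6.38 for Ota at 24 h and 72 h.

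AOC2, the neighbour and closest relative of AOC3, also rose with the high dose of Aa. Its controls read 1.96, 1.96 and 2.10 at 24 h and 2.09, 1.96 and 1.95 at 48 h. The high dose arrays read 6.69, 7.01 and 6.38 at 24 h and 6.85, 6.89 and 7.46 at 48 h, all above every control. The change was 4.68 ± 0.44 (adjusted p = 7.1e-07, at least 6.46-fold, 3 of 3 higher) at 24 h and 5.06 ± 0.44 (adjusted p = 1.3e-07, at least 8.36-fold, 3 of 3 higher) at 48 h. AOC2 passed the filter for Aa only through treated arrays, so these tests start from a gene that is high there. Over the alternatives in limma the adjusted p reached 8.8e-06 at 24 h and 1.8e-06 at 48 h. The effect at 48 h exceeded that at 24 h by 0.38 (adjusted p = 0.703). In that interaction 20.7% of genes were called, 2276 in all and 4304 with the replicate block.

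The low dose of Aa gave intermediate AOC2 values. The arrays read 4.40, 2.47 and 4.70 at 24 h, with replicate 2 under the floor, and 5.91, 4.68 and 5.39 at 48 h, all above 4. Replicate 2 was also the lowest of its group for AOC3 at 24 h (5.36). The change at 48 h was 3.33 ± 0.44 (adjusted p = 4.5e-05, at least 2.51-fold, 3 of 3 higher). At 24 h it was 1.85 ± 0.44 (adjusted p = 0.00596), but with values at or under 4 set to 4 it was 0.37 and no longer called (adjusted p = 0.349, alternatives from 3.1e-05 to 0.349). The effect was 1.48 larger at 48 h than at 24 h, which was not called (adjusted p = 0.295) and came to 0.78 without Aa low dose replicate 2 at 24 h.

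Between doses of Aa, AOC2 was higher with the high dose by 2.83 at 24 h (adjusted p = 2.5e-04) and by 1.74 at 48 h (adjusted p = 0.00438), with 3 of 3 high dose arrays above every low dose array at both times. Of all genes tested, 27.1% were called between the doses at 24 h and 46.5% at 48 h. At 24 h that was 2970 genes, or 4553 with the replicate block.

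With the high dose of Ota, AOC2 was above background at 72 h and not at 24 h. In Ota controls AOC2 read 2.02, 2.02 and 1.96 at 24 h and 1.96, 2.02 and 2.05 at 72 h. With the high dose it read 2.41, 2.57 and 1.97 at 24 h, all under the floor, and 5.80, 5.39 and 6.40 at 72 h, all above it. The 72 h arrays were at least 3.63-fold above the controls (3 of 3 higher). They also brought AOC2 past the filter for Ota, together with a single low dose array, so a test among the genes that passed starts from a gene that is high there. With no filter on low values the change was 3.85 ± 0.37 (adjusted p = 2.3e-06). At 24 h the change, with the filter, was 0.32 ± 0.35 (adjusted p = 0.442, 95% interval -0.43 to 1.07). With arrays shifted to a common median the 24 h value was 0.99 and called (adjusted p = 0.0253, alternatives from 0.0253 to 1), although no array of either group exceeded 4 as deposited.

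The time difference of the Ota high dose effect was 3.53 ± 0.50 for AOC2 (adjusted p = 3.2e-05, alternatives from 9.4e-06 to 2.1e-04, of which 2.1e-04 is with no filter). Of the 4 groups in it 3 lay wholly under 4, and with values at or under 4 set to 4 the difference was 1.86 (adjusted p = 1.4e-05). In the same interaction 53.8% of genes were called. High against low dose was at least 3.63-fold at 72 h (3 of 3 higher, and adjusted p = 6.4e-06 with no filter), where 58.4% of genes were called. At 24 h it gave -0.71 (adjusted p = 0.0947), with 58.1% of genes called, -0.01 with values at or under 4 set to 4, and -1.17 (adjusted p = 0.00481, alternatives from 0.00481 to 0.981) without Ota low dose replicate 3. Without low dose replicate 2 it was -0.21.

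The low dose of Ota left AOC2 near background. Arrays read 2.95, 4.03 and 2.11 at 24 h, with only replicate 2 above 4, and 2.08, 2.17 and 2.48 at 72 h. Replicate 2 was also the highest of this group for AOC3 (7.71). The change at 24 h was 1.03 ± 0.35 and not called (adjusted p = 0.0617, 95% interval 0.28 to 1.78). It was called at 1.49 (adjusted p = 0.0046, alternatives from 0.0046 to 1) without low dose replicate 3, and was 0.53 without replicate 2. At 72 h it was 0.23 (adjusted p = 0.734), and the low dose effect differed by -0.80 between the times (adjusted p = 0.396, -0.30 without low dose replicate 2 at 24 h, -1.26 without replicate 3 and -0.01 with values at or under 4 set to 4). No change of AOC2 between controls by time was called (-0.01 with adjusted p = 0.998 for Aa and 0.01 with adjusted p = 0.993 for Ota, all under 4).

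The compounds differed in AOC2 at the time they share. The high dose effect at 24 h was 4.36 ± 0.58 (log2) smaller with Ota than with Aa (a difference of -4.36, adjusted p = 2.8e-07, 95% interval -5.55 to -3.18). Both control groups and the Ota high dose group lay wholly under 4, and only the Aa high dose arrays were above it. With values at or under 4 set to 4 the difference was -2.69, which restates the Aa rise. The size of the difference under the floor therefore carries no weight. All 3 Ota high dose arrays lay below all 3 of Aa. Of 11405 genes tested over both compounds, 59.4% were called in this interaction, and doses were not matched. AOC3 on the same Ota arrays read 8.08 to 9.22 and on those of Aa 9.06 to 9.27, so the arrays with AOC2 at background were not arrays with AOC3 at background.

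**Figure D2:**
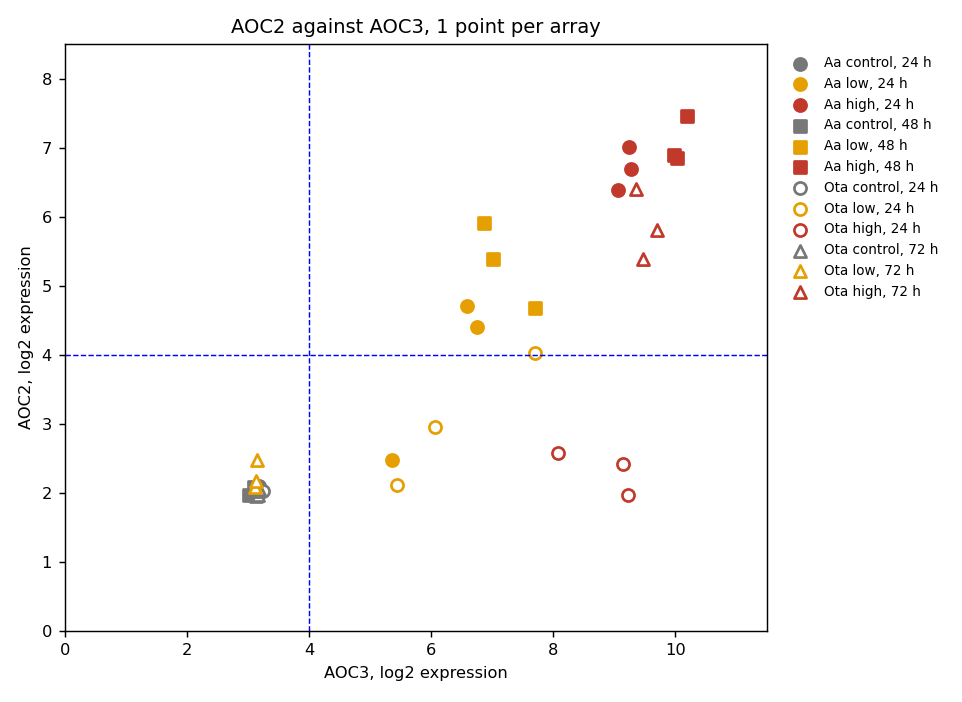
AOC2 (vertical axis, log2) against AOC3 (horizontal axis, log2), 1 point per array. Filled symbols are Aa and open symbols Ota, circles 24 h, squares 48 h and triangles 72 h, in grey for control, orange for low dose and red for high dose, and dashed lines mark 4. The 3 open red circles (Ota high dose, 24 h) sit at AOC3 values of 8.08 to 9.22 with AOC2 between 1.97 and 2.57, away from the 9 other high dose arrays, whose AOC2 values are 5.39 or more.

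AOC1, the diamine oxidase, was at background throughout. It read between 2.23 and 2.91 on the 36 arrays with a median of 2.27, and the highest value was replicate 2 of the Ota high dose at 24 h. No group had an array above 4, and no dose or time can be ordered from these values. The pseudogene AOC4P, which follows AOC3 on the chromosome, was under 4 on all arrays but 1 of the Ota high dose at 24 h (4.81), and its median was 3.16.

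The genes whose group means ran most like those of AOC3 were found by Pearson correlation over the 12 group means, with values at or under 4 set to 4, among 11404 genes. They were MIEF1 (r = 0.975), an adaptor of mitochondrial fission, CCDC62 (0.969), LSMEM1 (0.968), TUT7 (0.966), which adds uridines to RNA ends, the homeobox gene MSX1 (0.966) and the transcription factor ETS2 (0.958). The group means share controls and arrays, so these values describe likeness only. AOC2 ranked 326 on this list (r = 0.802).

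Like AOC3, LSMEM1 and CCDC62 were at the floor in all control groups and in the Ota low dose at 72 h. LSMEM1 had means of 9.26 and 9.73 with the high Aa dose at 24 h and 48 h and of 7.82 and 8.42 with that of Ota at 24 h and 72 h. MSX1 had control means of 4.67 (Aa, 24 h) and 4.59 (Ota, 24 h) and high dose means of 7.95 and 7.41. Where AOC3 rose with the low dose of Ota at 24 h, MSX1 had a mean of 4.79. ETS2, expressed in the controls (7.54 with Aa and 7.07 with Ota at 24 h), had high dose means of 8.80 and 8.76 at 24 h, of 9.65 with Aa at 48 h and of 9.75 with Ota at 72 h.

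The genes most like AOC2 were the potassium channel gene KCND1 (r = 0.982), NOL8 (0.977), which codes for a nucleolar protein, SLC35E4 (0.977) and SMG8 (0.973), a factor of nonsense-mediated decay. AOC3 ranked 603 there. KCND1 had means of 7.17 and 7.80 with the high dose of Aa, of 4.31 with Ota at 24 h and of 5.52 with Ota at 72 h. SLC35E4 was at the floor with the high dose of Ota at 24 h and had a mean of 4.74 at 72 h, against 5.55 and 5.29 with Aa. These genes were chosen for their likeness to AOC2, so their course is a description.

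**Figure D3:**
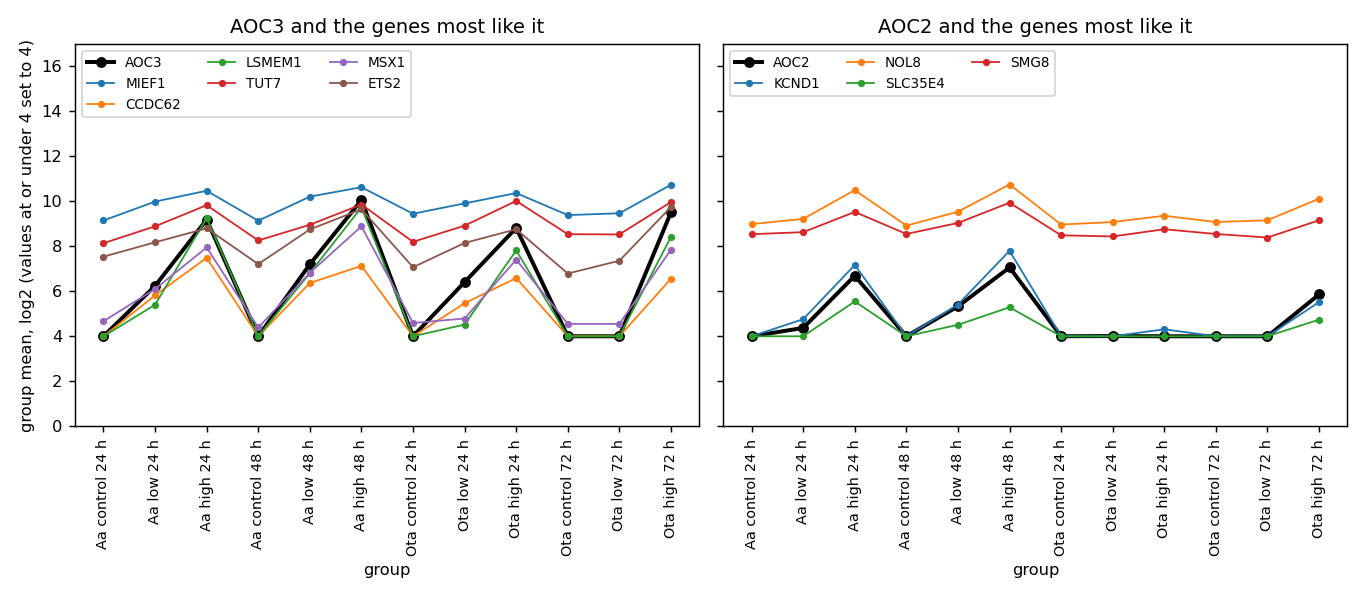
Group means of AOC3 (left, black) with the 6 genes most like it and of AOC2 (right, black) with the 4 most like it, in log2 with values at or under 4 set to 4 (vertical axis), over the 12 groups (horizontal axis). Lines only join the groups of a gene. The AOC3 set is up in both high doses of each compound, with LSMEM1 at 7.82 in the Ota high dose at 24 h, whereas in the AOC2 set KCND1 is at 4.31 there.

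Genes around AOC2 and AOC3 did not share 1 course. Of the 20 nearest protein-coding genes, 10 on each side, 18 had a probe set, and 12 were tested for Aa and 11 for Ota. With the high dose of Aa, 5 were called higher and 3 lower at 24 h (median change 0.08, against 0.03 over all genes) and 5 and 4 at 48 h (0.10 against -0.04). With that of Ota, 0 were called higher and 7 lower at 24 h (median -1.62 against -0.26) and 1 and 9 at 72 h (-0.92 against -0.12). At 24 h 1 was called higher without Ota high dose replicate 3, and 4 were with shifted arrays. Over all genes tested, 27.4% were called higher and 24% lower with the high Aa dose at 24 h, and 30.9% and 35.1% at 48 h. With Ota the shares were 21.6% and 42.4% at 24 h and 26.3% and 37% at 72 h. Whether the neighbours differ from all genes was not tested.

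The adjacent gene PSME3, which codes for a proteasome activator, had no called change with Aa. It changed by -0.37 and 0.09 with the high dose of Aa (adjusted p = 0.203 and 0.748), and fell by 3.50 with Ota at 24 h (adjusted p = 6.2e-08) and by 0.87 at 72 h (adjusted p = 0.0175). WNK4, a kinase of renal salt transport 5 genes before the pair, was the neighbour that rose from background with Aa. It read 2.27 to 2.31 in Aa controls, 4.01 to 6.33 and 6.29 to 6.91 with the low dose, and 7.16 to 8.33 and 8.75 to 8.85 with the high dose at 24 h and 48 h. The high dose changes were at least 13.1-fold (adjusted p = 1.1e-07) and at least 28-fold (adjusted p = 8.6e-09). WNK4 passed the filter only through treated Aa arrays, so these tests start from a gene that is high there.

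On every Ota array WNK4 was under 4, including those at 72 h where AOC2 was up. With values at or under 4 set to 4, the WNK4 effect at 24 h differed by -3.71 between Ota and Aa, a comparison added after the values were seen. Every Ota array and every Aa control was set to 4 there, so this difference is given without a test. Among the other neighbours, BECN1, an autophagy gene, rose by 0.73 and 1.05 with Aa. IFI35, an interferon-induced gene, changed by -3.05 and -1.39 with Aa and was at least 9.1-fold and 4.9-fold lower with Ota. COA3, needed to assemble cytochrome oxidase, fell in all 4 high dose comparisons, with changes from -1.34 to -3.15. VPS25, a sorting-complex subunit, changed by -3.87 and -3.32 with Ota. RUNDC1 changed by -4.22 and -2.52 with Ota (the former -3.24 with values at or under 4 set to 4), and by 0.59 and 0.33 with Aa. EZH1, a histone methyltransferase, changed by 0.82 and -0.42 with Aa and by -1.62 and -0.92 with Ota. The DNA repair gene BRCA1 changed by 0.86 and 1.09 with Aa, by -1.20 with Ota at 24 h and by 0.79 with Ota at 72 h.

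**Figure D4:**
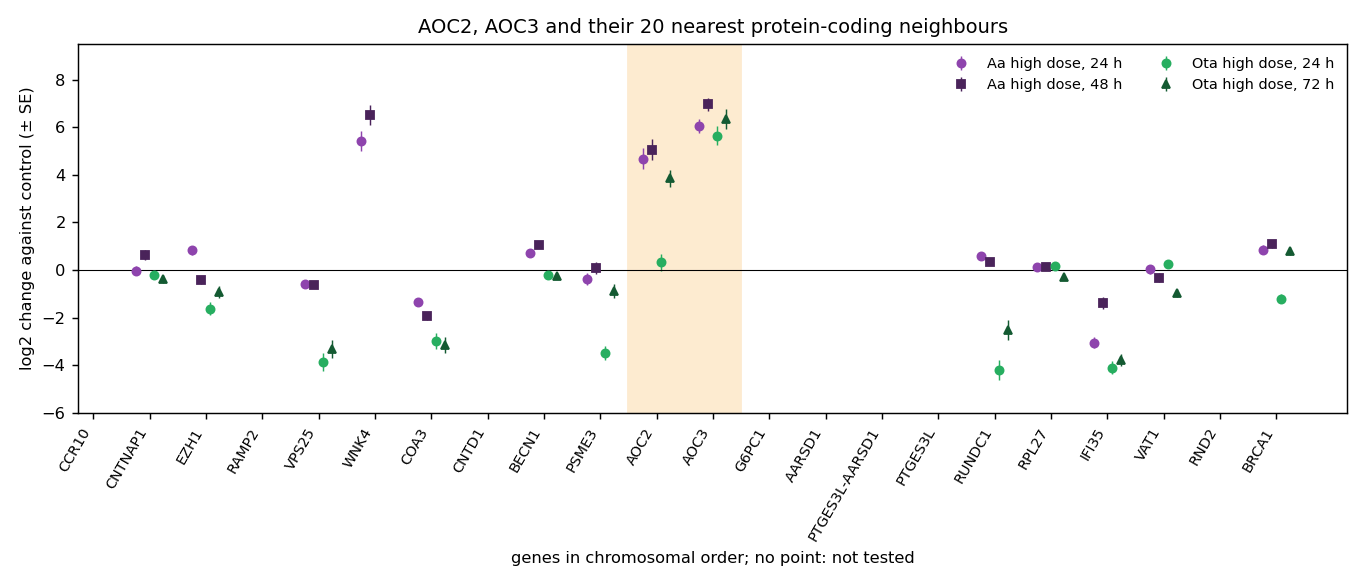
Log2 change of the high dose against control (vertical axis, points with ± SE from limma) for AOC2, AOC3 (shaded) and their 20 nearest protein-coding neighbours in chromosomal order (horizontal axis), in purple for Aa and green for Ota. Genes without a point were under the filter or had no probe set. AOC3, AOC2 other than with Ota at 24 h (0.32) and, with Aa, WNK4 (5.42 and 6.52) stand above the rest, and PSME3 beside AOC2 lies at or below 0.09.

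AOC3 transcripts are textbook features of other cell types, whose markers were read on the same arrays. Of 7 smooth muscle markers, MYH11, CNN1, DES and LMOD1 were under 4 on all 36 arrays. TAGLN rose in all 4 high dose comparisons (by 1.52 and 3.72 with Aa, and at least 6.17-fold and 3.04-fold with Ota), and SMTN rose by 2.24 with Aa at 48 h and by 2.15 with Ota at 72 h. ACTA2 rose by 0.95 with Ota at 24 h and fell by 0.92 at 72 h. The summed level of the list (log2 of the sum) was 7.29 to 9.21 in controls and 7.64 to 9.96 with high doses. The part of these genes in the AOC3 values was not tested.

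Of 7 adipocyte markers 6, among them ADIPOQ, PLIN1, LEP and FABP4, never exceeded 4, and of 8 endothelial markers 6 did not, PECAM1, CDH5, VWF and KDR included. The adipocyte marker that was expressed, PPARG, a transcription factor of fat cell formation, rose by 1.42 and 1.65 with the high dose of Ota and fell by 0.77 with Aa at 24 h. Among endothelial markers ESAM, an adhesion molecule, fell by 1.97 with Ota at 72 h. The summed levels were 7.42 to 8.19 in controls and 7.23 to 9.33 with high doses for the adipocyte list, and 5.98 to 7.58 and 6.09 to 6.90 for the endothelial list. Against its own controls the adipocyte sum was higher without overlap with Ota at both times. With Aa it was lower at 24 h and overlapped at 48 h. The endothelial sum was lower with Ota at 72 h, slightly higher with Aa at 24 h, and overlapped in the other comparisons. Of 7 leukocyte markers with a probe set, 5 were always under 4, PTPRC among them. FCER1G rose by 4.03 and 4.24 with the high dose of Ota (2.47 and 2.77 with values at or under 4 set to 4), and the summed leukocyte level was 5.18 to 5.33 in controls and 5.33 to 7.46 with high doses. Of 2 leukocyte markers tested for Ota, 2 were called higher with the high dose at 24 h and 1 at 72 h. Of all genes 21.6% and 26.3% were called higher there. ITGAM exceeded 4 on 3 arrays, up to 5.53, all of the Ota high dose at 24 h. The 1 marker tested for Aa was called higher with the high dose, by 1.12 at 24 h and 2.18 at 48 h. With values at or under 4 set to 4 these were 0.00 and 0.73. The shares over all genes were 27.4% and 30.9%. Each of these markers passed the filter only through treated arrays, for Aa only those of the high dose at 48 h. Their tests therefore start from genes that are high there. Among 16 proximal tubule markers with a probe set, the labelled type of the line, 9 never exceeded 4 (LRP2, CUBN, SLC34A1, SLC5A2, SLC22A6, SLC22A8, ANPEP, AQP1 and VIL1) and 4 did on every array (SLC4A4, SLC3A1, DPP4 and PDZK1). SLC7A9, with a median of 1.90 over all arrays, exceeded 4 on 6 arrays, all with the high dose of Aa, and reached 6.90. GGT1 exceeded 4 on 3 arrays and MME on 1. The summed level was 12.37 to 13.71 in controls and 11.62 to 12.77 with high doses. Against its own controls it was lower without overlap except with Aa at 24 h (12.37 to 13.01 against 12.10 to 12.62).

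Other amine oxidases were called in both directions. The counts of this and the following lists are to be read against all genes tested. Of those, 27.4% were called higher and 24% lower with the high Aa dose at 24 h, 30.9% and 35.1% at 48 h, 21.6% and 42.4% with Ota at 24 h, and 26.3% and 37% at 72 h. Their median changes were 0.03, -0.04, -0.26 and -0.12 in that order. Of 12 listed genes 9 were tested; MAOB, LOXL4 and DAO never exceeded 4. With the high dose of Aa 2 were called higher and 4 lower at 24 h (median -0.14) and 4 and 4 at 48 h (0.09). With that of Ota 2 and 3 were called at 24 h (0.03) and 0 and 5 at 72 h (-0.90). The lower count with Aa at 24 h was 2 when control replicate 1 or high dose replicate 3 was left out, and the higher count with Ota at 24 h was 1 without high dose replicate 1. With shifted arrays the Ota counts at 24 h were 5 and 1. Low doses gave 2 and 1, and 2 and 2, for Aa and 0 and 0, and 0 and 1, for Ota. The low dose shares over all genes were smaller, 11.6% higher and 13.5% lower, and 18.8% and 19.1%, for Aa. For Ota they were 4.66% and 10%, and 9.79% and 7.28%.

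PAOX, which oxidises acetylated polyamines, rose with Aa by 2.39 ± 0.17 at 24 h (adjusted p = 7.8e-08) and 2.41 ± 0.17 at 48 h (adjusted p = 2.6e-08) and was at least 2.21-fold and 2.71-fold lower with Ota. All Ota high dose arrays at 24 h lay under 4. With values at or under 4 set to 4, the effect at 24 h differed between the compounds by -3.53 (adjusted p = 1.2e-10, a test added after the values were seen). The spermine oxidase gene SMOX rose by 1.26 with Aa at 24 h and fell by 1.04 with Ota at 24 h, a change of -0.37 that was not called with shifted arrays (adjusted p = 0.0647, alternatives from 2.9e-05 to 0.0647). MAOA, which degrades serotonin and noradrenaline, fell in all 4 comparisons, with changes of -1.38 and -2.55 for Aa and -0.91 and -2.22 for Ota. Its mean went from 9.78 to 7.23 with Aa at 48 h. RNLS, the renalase gene, changed by -2.41 and -4.99 with Aa, where the latter was -4.23 with values at or under 4 set to 4. With Ota it rose by 0.68 at 24 h and fell by 0.58 at 72 h, and the compounds differed by 3.09 ± 0.45 at 24 h (adjusted p = 1.1e-06, added after the values were seen). LOX, which crosslinks collagen, fell by 4.20 ± 0.33 with Ota at 72 h and changed by -1.29 and -1.88 with Aa.

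Polyamine genes were called in both directions too, and with Ota their median changes were close to those of all genes (-0.26 and -0.12). Of 18 listed, 16 were tested. The counts higher and lower were 7 and 4 with the high Aa dose at 24 h (median -0.03) and 7 and 4 at 48 h (0.28), and 3 and 6 with Ota at 24 h (-0.22) and 5 and 6 at 72 h (-0.13). With shifted arrays the higher count with Aa at 24 h was 4, and the counts with Ota at 24 h were 8 and 2. SAT1, which acetylates polyamines for export, rose by 2.00 with Aa at 48 h, and SAT2 fell by 2.74 with Ota at 24 h. At 72 h with Ota, ARG2, the mitochondrial arginase, changed by -4.13 and DHPS, which makes hypusine from spermidine, by -3.97. ODC1, the enzyme that makes putrescine, rose in all 4 comparisons, by 0.44, 1.72, 0.56 and 1.20.

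**Figure D5:**
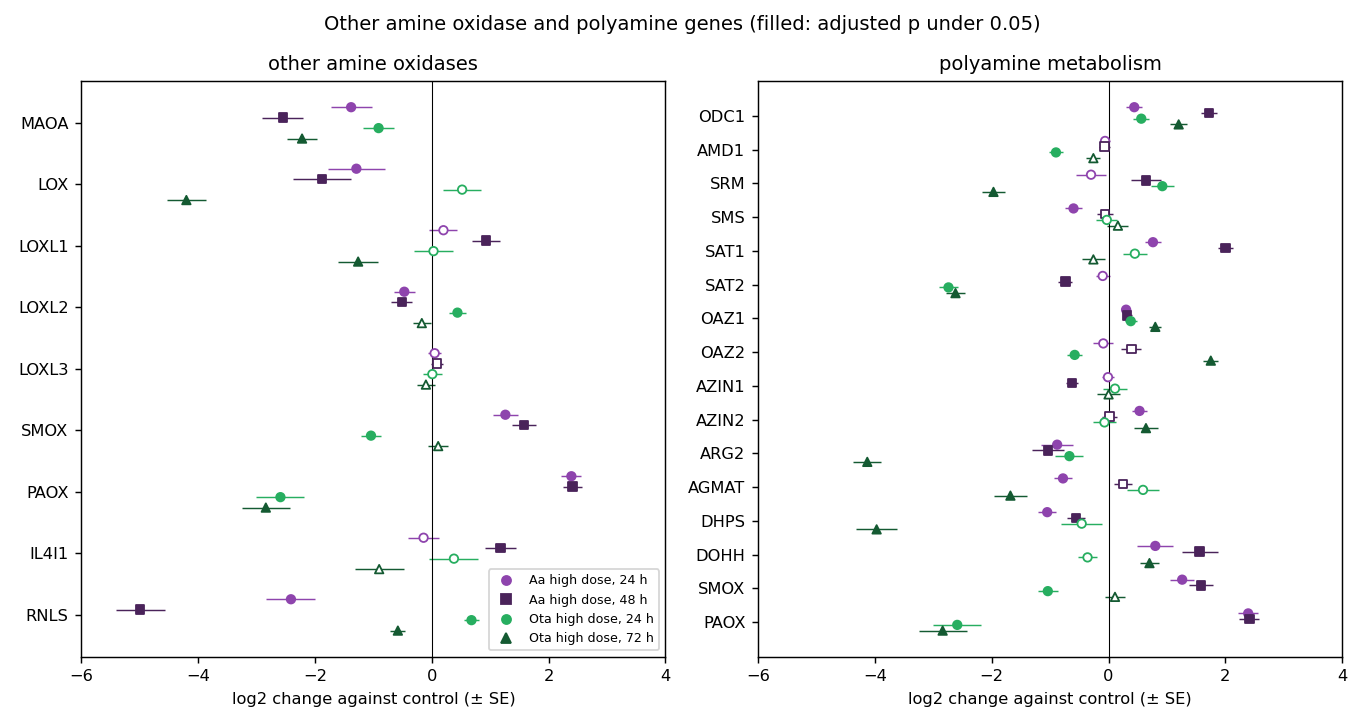
Log2 change of the high dose against control (horizontal axis, ± SE from limma) for the tested genes of other amine oxidases (left) and polyamine metabolism (right), in purple for Aa and green for Ota, filled where the adjusted p was under 0.05. PAOX lies at 2.39 and 2.41 with Aa and below 0 with Ota, and MAOA lies below 0 in all 4 comparisons.

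Few genes of amine synthesis, transport and histamine handling were expressed, 3 tested for Aa and 4 for Ota of 13. DDC, which makes dopamine and serotonin, was at least 2.75-fold and 5.36-fold lower with the high dose of Aa. HRH1, a histamine receptor, rose by 2.14 and 3.06 with Ota. Its rise of 0.62 with Aa at 48 h was not called once control replicate 1 (0.47), high dose replicate 1 (0.42) or high dose replicate 2 (0.59) was left out, where the adjusted p lay between 0.0587 and 0.121 (alternatives from 0.00408 to 0.121). SLC18A2, a vesicle monoamine transporter, rose by 1.65 with Ota at 72 h. The counts higher and lower were 0 and 1, 1 and 1, 1 and 0, and 3 and 0 in the order Aa at 24 h and 48 h, Ota at 24 h and 72 h (medians -0.35, -0.60, 0.31 and 1.52, against 0.03, -0.04, -0.26 and -0.12 over all genes). With Ota at 24 h they were 2 higher without high dose replicate 2, 1 lower when control replicate 2 or high dose replicate 3 was left out, and 3 higher with shifted arrays.

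Genes acting on the products of these enzymes, aldehydes and hydrogen peroxide, were called in both directions. Of 12 aldehyde dehydrogenases and oxidases 7 were tested for Aa and 6 for Ota, and in the same order 2 and 1, 3 and 2, 1 and 2, and 2 and 1 were called higher and lower (medians 0.27, 0.49, 0.10 and 0.27, against 0.03, -0.04, -0.26 and -0.12 over all genes). The first higher count was 1 when high dose replicate 1, control replicate 2 or control replicate 3 was left out. With shifted arrays it was also 1, and with Ota it became 5 at 24 h and 5 at 72 h. With the replicate block 2 were lower with Aa at 24 h. ALDH1A3 rose by 1.99 with Aa at 24 h, while its 1.68 with Ota at 72 h was 0.30 with values at or under 4 set to 4 and not called (adjusted p = 0.256, alternatives from 1.1e-04 to 0.256). ALDH1B1 was at least 10.6-fold lower with Ota at 24 h, and ALDH3A2, which clears fatty aldehydes, changed by -1.67 with Aa at 48 h and by -1.35 with Ota at 72 h.

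Of 11 tested genes of hydrogen peroxide removal 3 and 0, 3 and 3, 4 and 1, and 4 and 6 were called higher and lower (medians 0.03, 0.19, 0.33 and -0.45, against 0.03, -0.04, -0.26 and -0.12 over all genes). TXNRD1, thioredoxin reductase, rose by 1.09 and 0.36 with Aa and by 0.57 with Ota at 72 h. With Ota at 24 h it changed by -0.55 (adjusted p = 0.0358, alternatives from 0.00132 to 0.591), and this was not called with shifted arrays or when any control replicate, high dose replicate 1 or high dose replicate 2 was left out (-0.57 to -0.31). GPX3 and GPX4, glutathione peroxidases, changed by -1.45 and -1.76 with Ota at 72 h. The first higher count was 1 without control or high dose replicate 2, the second was 1 without high dose replicate 2 and 6 with the replicate block, the third was 2 without control replicate 2 and 10 with shifted arrays, and the fourth was 2 when control replicate 1, control replicate 2 or high dose replicate 3 was left out. The 1 lower call with Ota at 24 h went when control replicate 1, control replicate 3 or high dose replicate 1 was left out, and the 6 at 72 h were 3 with shifted arrays.

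Genes of copper uptake and delivery were called higher and lower in the counts 0 and 3, 4 and 2, 2 and 5, and 2 and 3 of 8 tested (medians -0.20, 0.36, -1.25 and 0.08, against 0.03, -0.04, -0.26 and -0.12 over all genes). With Ota at 24 h, where 5 were lower, 42.4% of all genes were. ATP7A, the copper pump of the secretory pathway, changed by -1.81 and -2.89 with Aa and rose by 1.27 with Ota at 24 h, a difference of 3.08 ± 0.37 at 24 h (adjusted p = 6.4e-08, added after the values were seen). COMMD1, a regulator of copper export, changed by -2.06 and -3.97 with Aa and by -1.98 with Ota at 72 h. SCO1 and SCO2, which deliver copper to cytochrome oxidase, changed by -2.87 and -2.38 with Ota at 24 h, and CCS, the copper chaperone of superoxide dismutase, was at least 7.47-fold lower at 72 h. With Aa at 48 h SCO1 rose by 0.69 and CCS by 1.04.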

How the data were processed

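Gene expression in HK-2 cells was measured on single-colour Affymetrix arrays with biotin-labelled cRNA. The authors deposited log2 expression values for each probe set. GCRMA is the tool that the submitters' processing notes name. This method models background from the probes' base content before normalization and summary. Its version is not given in the sources used here, and values near background lie close together. Deposited values ran from 0.844 to 16.09, and the correlation between 2 arrays was at most 0.9972. The number of arrays, 3 a group, limits the precision.

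Probe sets were named from the platform annotation, with 1 set per gene (the highest mean, sets ending in _x_at last). Group-mean models were fitted in limma 3.58.1 (R 4.3.3, lmFit and eBayes) over the 18 arrays of a compound for 10972 (Aa) or 11029 (Ota) genes past the filter, or over all 36 for the comparison of compounds, with Benjamini-Hochberg adjustment. The fit was tested on simulated data. Members and lists were chosen with earlier results of these data known. The text names the members, the genes most like AOC3 (6) and AOC2 (4), the 2 called genes of each pathway list with the largest change in each high dose comparison, and neighbours called with a change of at least 1 (log2). Some further changes of these genes, ODC1 and AOC4P were given after their values were seen.

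Replicate numbers were checked as pairs. For Aa, deviations from group means correlated at 0.19 to 0.6 in all 45 same-number pairs of arrays, so the numbers pair the samples. The median for other pairs was -0.21. Deviations cancel within a group, so the values of other pairs follow from those of same-number pairs and are no separate support. The main Aa fits did not use this pairing, so their p-values and shares of genes called come from unpaired group means. For Ota 24 of 45 same-number pairs exceeded 0.1 (median 0.11), against 4 of 90 other pairs (median -0.07). Same-number Ota arrays were thus more alike than others, though less so than for Aa, and whether they are pairs is not settled. Alternatives were the replicate block, values at or under 4 set to 4, quantile normalization, arrays shifted to a common median over tested genes (shifted arrays), no filter, 1 fit of all 36 arrays, all probe sets, and each array left out. No scan date or slide was used. Python 3.11.15 with matplotlib 3.10.9 served for the plots.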

Additional observations from a re-analysis of the deposited data

Results flagged for a closer look

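The effect of a treatment differed between times or compounds, by a test of the difference itself, in 3 results. The low dose effect of Ota on AOC3 was smaller at 72 h than at 24 h, by -3.28 ± 0.58 (log2), or -2.41 with values at or under 4 set to 4. The high dose effect of Ota on AOC2 was larger at 72 h than at 24 h, by 3.53 ± 0.50, or 1.86 with values at or under 4 set to 4, where 3 of the 4 groups lay wholly under 4 and the 72 h high dose arrays brought the gene past the filter. The high dose effect on AOC2 at 24 h was smaller with Ota than with Aa, by -4.36 ± 0.58, or -2.69 with values at or under 4 set to 4. Here too 3 of the 4 groups lay wholly under 4, so the latter value restates the Aa rise.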

How the results depend on the processing

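The calls and directions of AOC2 and AOC3 held under the alternatives run, with the exceptions given here. With values at or under 4 set to 4, the AOC3 high dose changes were 5.19 and 6.06 for Aa and 4.82 and 5.51 for Ota, high against low dose with Ota at 72 h was 5.51, and AOC2 with the low dose of Aa at 24 h was 0.37 and not called. On that scale AOC2 with Ota was 1.86 for the high dose at 72 h, for high against low dose at 72 h and for the high dose effect by time, and -0.01 for high against low dose at 24 h and for the low dose effect by time. With Aa it was 2.69 and 3.06 for the high dose and 1.33 for the low dose at 48 h. With shifted arrays the AOC3 changes with Ota were 6.33 at 24 h and 6.68 at 72 h and high against low dose at 72 h was 6.74, the AOC3 difference of Ota from Aa turned to 0.35, AOC2 was called with the high (0.99) and low (1.17) dose of Ota at 24 h, and TXNRD1 with the high dose of Ota at 24 h turned to 0.12 (adjusted p = 0.591). Control differences near 0 changed sign with quantile normalization (AOC3 with Ota -0.01, AOC2 with Aa 0.00) and with 1 array left out (AOC3 with Ota -0.03 to 0.04, AOC2 with Aa -0.05 to 0.04 and with Ota -0.01 to 0.04). With 1 array left out, AOC2 with the low dose of Ota at 24 h lay between 0.53 and 1.49, and high against low dose at 24 h between -1.17 and -0.21. CAT, called with Aa at 24 h (0.55), was not called when control replicate 2 (0.45) or high dose replicate 2 (0.50) was left out. Counts over the pathway lists and neighbours moved by over 1.5 times in 23 cases with 1 array left out (313 did not) and in 34 with the other alternatives (302 did not). The replicate block changed no call of AOC2 or AOC3; for Ota it moved the genes called with the high dose at 24 h from 7058 to 7211.

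Testing all probe sets called 11487 and 14623 with the high dose of Aa and 14902 and 14353 with that of Ota, against 5631, 7240, 7058 and 6989 genes, because more features were tested. The other counts over all probe sets were 5734 and 7932 (low dose of Aa), 5558 and 9845 (high against low dose of Aa), 4311 and 3997 (low dose of Ota), 13057 and 12928 (high against low dose of Ota), 6098 (Ota controls), 3925 and 11397 (high dose effect by time, Aa and Ota), 1431 (low dose effect of Ota by time) and 13887 (Ota against Aa), and without a filter the last was 10168. The genes called higher and lower with the high dose of Ota at 24 h were 2379 and 4679, 5577 and 2874 with shifted arrays, 3278 and 4002 with quantile normalization and 5376 and 4699 without a filter; at 72 h they were 2903 and 4086, and 4593 and 3038 with shifted arrays. Shifting moved the median change of all genes from -0.26 to 0.44 at 24 h and from -0.12 to 0.24 at 72 h. The cause of these moves was not tested. Values near background limit AOC1, AOC2 and AOC3 to bounds there.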
